A study of Canis lupus familiaris with 36 samples.

Results

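OX40 and CD40 are members of the TNF receptor family and were measured as 2 of the 44 immune genes on a custom canine NanoString panel, an assay that counts transcripts with color-coded probes and without amplification. Both were selected by name from the panel, which also held 4 housekeeping genes (ALAS1, GUSB, RPL30 and SDHA), and not by their measured values. RefSeq lists canine OX40 as TNFRSF4, between TNFRSF18 and SDF4, and CD40 between NCOA5 and CDH22 with the older symbol TNFRSF5. The samples were 34 canine tumors of oral squamous cell carcinoma (OSCC), a cancer of the lining of the mouth that arises spontaneously in dogs, and 2 samples of canine mucosal stroma. The submitters named 33 dogs as the source of the 36 samples and stated that 1 dog gave both a tumor and normal mucosa. The labels do not say which samples came from the same dog, so every test treated the samples as independent. Samples are called here by their patient number, and the mucosa samples are those of patients 8 and 9. No treatment, age or tumor site was labelled, and the panel held no epithelial gene against which the labelled tissue could be checked.

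OX40 is a costimulatory receptor that appears on T cells after they meet antigen, and in many tissues regulatory T cells carry it as well. Its ligand sits on antigen-presenting cells, and signaling through OX40 prolongs the survival and expansion of T cells. CD40 lies on the other side of the same cell contact: B cells, dendritic cells and macrophages carry it, as do some epithelial and endothelial cells, and the CD40 ligand of activated helper T cells signals through it to raise antigen presentation and cytokine release. Neither ligand gene was on the panel. In whole tissue, fewer cells of a type and less RNA per cell cannot be told apart.

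The deposited values are signals scaled to the housekeeping genes, and they are given here on the log2 scale. The total count over the 48 genes reached 27092 to 665587 per tumor (median 224716.5), and the mucosa samples had 117883 and 149876. The quotient of the second and the third positive control, which is a property of the assay and not of the tissue, divided the samples. It was 2.59 to 2.85 in 9 samples, namely the tumors of patients 1 to 7 and both mucosa samples, and 1.54 to 1.77 in the other 27 tumors. These are called the high-ratio and low-ratio samples, and values within them are given beside the pooled values. The tumors of patients 33 and 34 differed from each other by a mean of 0.19 (log2) per gene, against 0.51 for the next closest of 561 pairs of tumors.

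OX40 was low in the mucosa and higher in every tumor. The mucosa samples of patients 8 and 9 had OX40 levels of 5.31 and 4.69. In tumors the level was 7.30 ± 0.88 (SD, n = 34), with a lowest value of 5.96 in patient 20, a median of 7.19 and a highest value of 10.59 in patient 3. All 34 tumors exceeded both mucosa samples, and the groups did not overlap. A gap of this kind, with every tumor above both mucosa samples, was found in 13.6% of the 44 immune genes. The mucosa levels rested on few molecules: the recovered counts were 33 in patient 8 (95% Poisson interval 22.7 to 46.3) and 24 in patient 9 (15.4 to 35.7), which were 2.01 and 1.27 times the background set by the negative controls. The lowest tumor, that of patient 20, also had 33 counts (22.7 to 46.3) and lay above patient 8 through its larger scaling factor (1.88 against 1.21). The tumor of patient 6 had 83 counts, 1.81 times its background. The gap at the low end of the tumors therefore rests on few counts as well. These intervals cover counting error only.

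CD40 was detected above background in every sample and was also higher in tumors. Its level was 7.28 and 7.97 in the mucosa samples of patients 8 and 9, from 129 counts (107.7 to 153.3) and 233 counts (204.0 to 264.9). In tumors it was 9.47 ± 0.83 (SD, n = 34), with a lowest value of 7.67 in patient 6, a median of 9.48 and a highest value of 10.90 in patient 33. The level exceeded both mucosa samples in 32 of the 34 tumors, and those of patients 4 (7.88) and 6 (7.67) lay between them. The tumor of patient 6 had 141 counts, 3.08 times its background, and that of patient 36 had 68 counts, 3.65 times. The mucosa counts of patients 8 and 9 were 7.85 and 12.28 times background. A share of 25% of the immune genes had at least 32 tumors above both mucosa samples.

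Both receptors passed the test between tumor and mucosa when all samples were used. OX40 rose by 2.30 on the log2 scale (standard error 0.64, 95% interval 1.01 to 3.59, limma adjusted p = 0.00558), and CD40 rose by 1.84 (standard error 0.61, 95% interval 0.61 to 3.07, limma adjusted p = 0.0174). By this test 31.8% of the 44 immune genes were higher in tumors, and the median change over all 44 was 0.91. The split was 14 higher and 1 lower, and at equal sample medians it was 5 higher and 7 lower. In size of change OX40 was the 8th and CD40 the 16th of the 44 genes. An exact permutation test of each gene alone, over the 630 ways to choose 2 of 36 samples, gave p = 0.00635 for OX40 and p = 0.00476 for CD40 (two-sided).

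**Figure D1:**
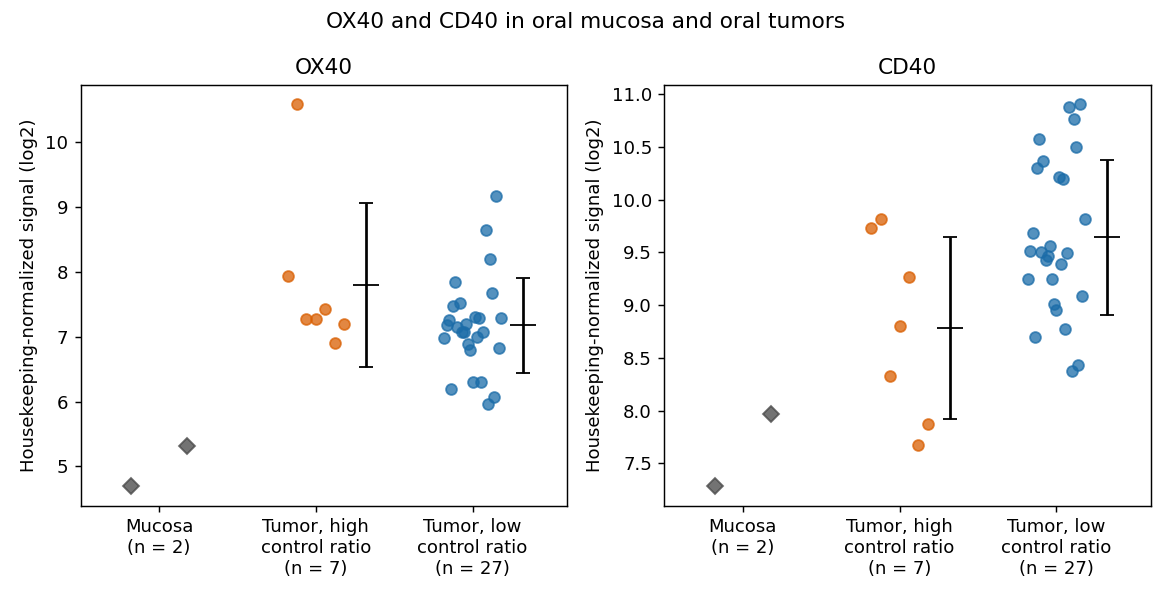
Housekeeping-normalized log2 signal of OX40 (left) and CD40 (right) in each sample, with mucosa as diamonds, tumors as circles, and the mean and SD of each tumor group as bars. Every tumor lies above both mucosa samples in OX40, and 32 of 34 do in CD40, where the high-ratio tumors average 8.78 and the low-ratio tumors 9.64.

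The mucosa samples shared the high positive-control ratio with only 7 of the tumors, and within that group OX40 passed the test against mucosa and CD40 did not. The 7 high-ratio tumors had OX40 levels of 6.91 to 10.59 (median 7.28, mean 7.80 ± 1.27), and all of them lay above the mucosa. OX40 then differed from mucosa by 2.79 (two-sided exact permutation p = 0.0278, the smallest p that 7 against 2 samples allow; limma adjusted p = 0.0442). The same 7 tumors had CD40 levels of 7.67 to 9.81 (median 8.80, mean 8.78 ± 0.86), and those of patients 4 and 6 did not clear the mucosa sample of patient 9. The CD40 difference was then 1.16 and did not pass (exact permutation test, two-sided, p = 0.167; limma adjusted p = 0.206). The OX40 value minus the CD40 value differed from mucosa by 1.64 in these tumors (exact permutation p = 0.194). The unequal calls therefore do not show that the receptors differ. Within the high-ratio samples 18.2% of the immune genes were higher in tumors. With the ratio group as a term over all samples, the differences are the same by construction, because both mucosa samples are high-ratio. Only the variance then draws on the low-ratio tumors as well. In that fit OX40 passed (2.79, limma adjusted p = 0.00362) and CD40 did not (1.16, limma adjusted p = 0.185).

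Among the tumors alone, neither receptor passed the test between the ratio groups. CD40 averaged 9.64 ± 0.73 (n = 27) in the low-ratio tumors, 0.86 above the high-ratio tumors (standard error 0.33, 95% interval 0.18 to 1.53, limma adjusted p = 0.104). OX40 averaged 7.17 ± 0.73 (n = 27) in the low-ratio tumors, a difference of -0.62 (standard error 0.37, 95% interval -1.37 to 0.12, limma adjusted p = 0.223). Of the 44 immune genes, 2.27% passed this test.

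Leaving out either of the 2 mucosa samples leaves a group of 1, so only the size of the difference is given for that setting. Without patient 8 the difference was 2.61 for OX40 and 1.50 for CD40, and without patient 9 it was 1.99 for OX40 and 2.19 for CD40. When each sample was rescaled to the same median over the immune genes, the differences fell to 1.09 for OX40 and 0.63 for CD40 (limma adjusted p = 0.267 for both), and the median change over all 44 genes moved from 0.91 to -0.30. Both receptors remained on the higher side of the mucosa in each of these settings.

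**Figure D2:**
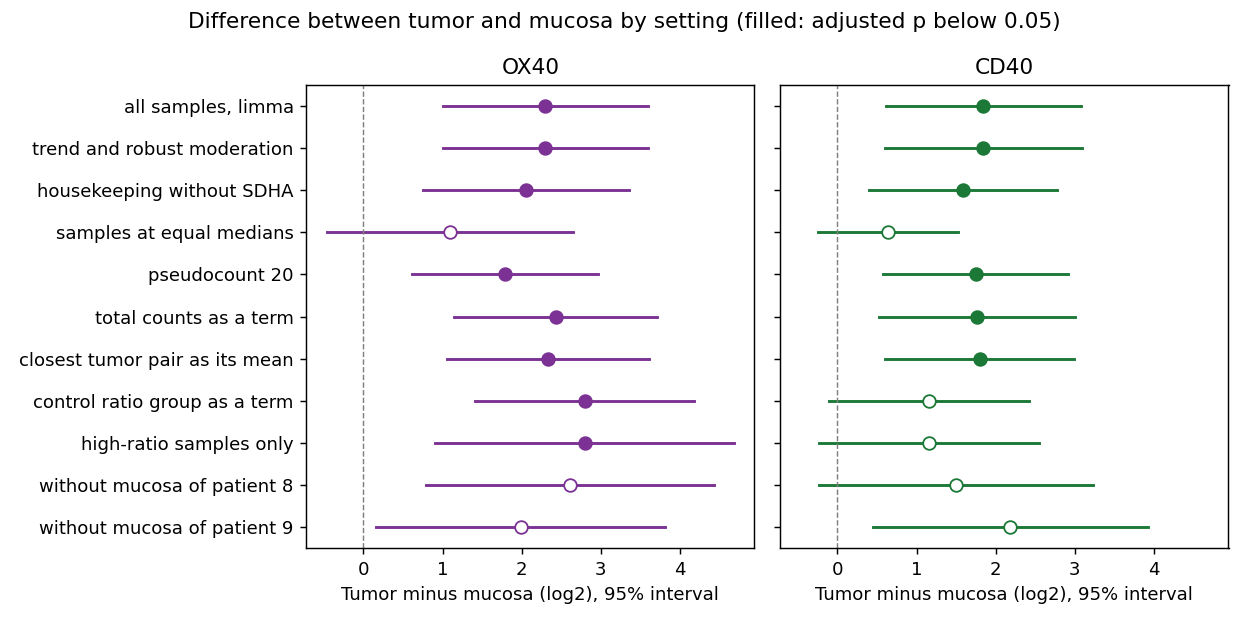
Difference between tumors and mucosa (log2, with 95% interval) for OX40 (left) and CD40 (right) under each setting, with filled circles where the limma adjusted p was below 0.05. All differences are above 0, those of OX40 from 1.09 to 2.79 and those of CD40 from 0.63 to 2.19. Neither receptor passed at equal sample medians. The settings without patient 8 or patient 9 leave a mucosa group of 1, so only their sizes are read.

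The other TNF superfamily genes of the panel were CD27 and CD70, a receptor of T cells and its ligand, TNF itself, TNFSF10, which encodes the death ligand TRAIL, and TNFSF14, which encodes the T cell costimulatory ligand LIGHT. Of these 5, 1 passed the test, with a median change of 0.42 against 0.91 over all 44 genes. CD70 rose by 3.60 (limma adjusted p = 0.00071). CD27 differed by 2.12 (limma adjusted p = 0.0675), and TNF, TNFSF10 and TNFSF14 by 0.41, -0.21 and 0.42.

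Differences taken within a sample do not depend on how samples are scaled, and by this measure none of the 4 differences tested passed between tumor and mucosa. The OX40 value minus the CD40 value was -1.97 and -3.28 in the mucosa samples of patients 8 and 9 and ran from -4.81 to 1.32 in tumors. Its mean was higher in tumors by 0.46 (exact permutation test, two-sided, p = 0.592, adjusted p = 0.789 over 4 such differences). Within the high-ratio samples the difference was 1.64, with 5 of 7 tumors above both mucosa samples and 0 below both (exact permutation p = 0.194). Relative to CD3e, a subunit of the T cell receptor complex, OX40 differed by -0.06 (exact permutation p = 0.940) and CD40 by -0.52 (exact permutation p = 0.440). Relative to FOXP3, the lineage factor of regulatory T cells, OX40 differed by 0.47 (exact permutation p = 0.567). Within the high-ratio samples these differences were 1.46 for OX40 relative to CD3e (exact permutation p = 0.278), -0.18 for CD40 relative to CD3e (exact permutation p = 0.778) and 1.64 for OX40 relative to FOXP3, with 7 of 7 tumors above both mucosa samples (exact permutation p = 0.167). The mucosa samples were far apart in the CD40 value minus the CD3e value, at -1.70 in patient 8 and 1.12 in patient 9, so that the difference from tumors was -1.93 without patient 8 and 0.89 without patient 9.

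Across the 34 tumors, OX40 varied over a 24.8-fold and CD40 over a 9.38-fold range of signal, and they did not vary together (r = -0.11, permutation p = 0.538, adjusted p = 0.734; rho = -0.19, permutation p = 0.288). The correlation was 0.27 within the 7 high-ratio tumors (exact permutation p = 0.681) and -0.10 within the 27 low-ratio tumors (permutation p = 0.608). The tumors at the extremes show this directly. Patient 3 had the highest OX40 level, 10.59 from 1235 counts, and ranked 21st in CD40 at 9.26. Patients 33 and 34 had the highest CD40 levels, 10.90 and 10.88, and ranked 32nd and 33rd in OX40 at 6.20 and 6.07. Patient 26 was high in both, at 9.16 in OX40 and 10.21 in CD40, as was patient 22, at 8.65 and 10.19. Patient 20 had the lowest OX40 level and ranked 29th in CD40 at 8.70.

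**Figure D3:**
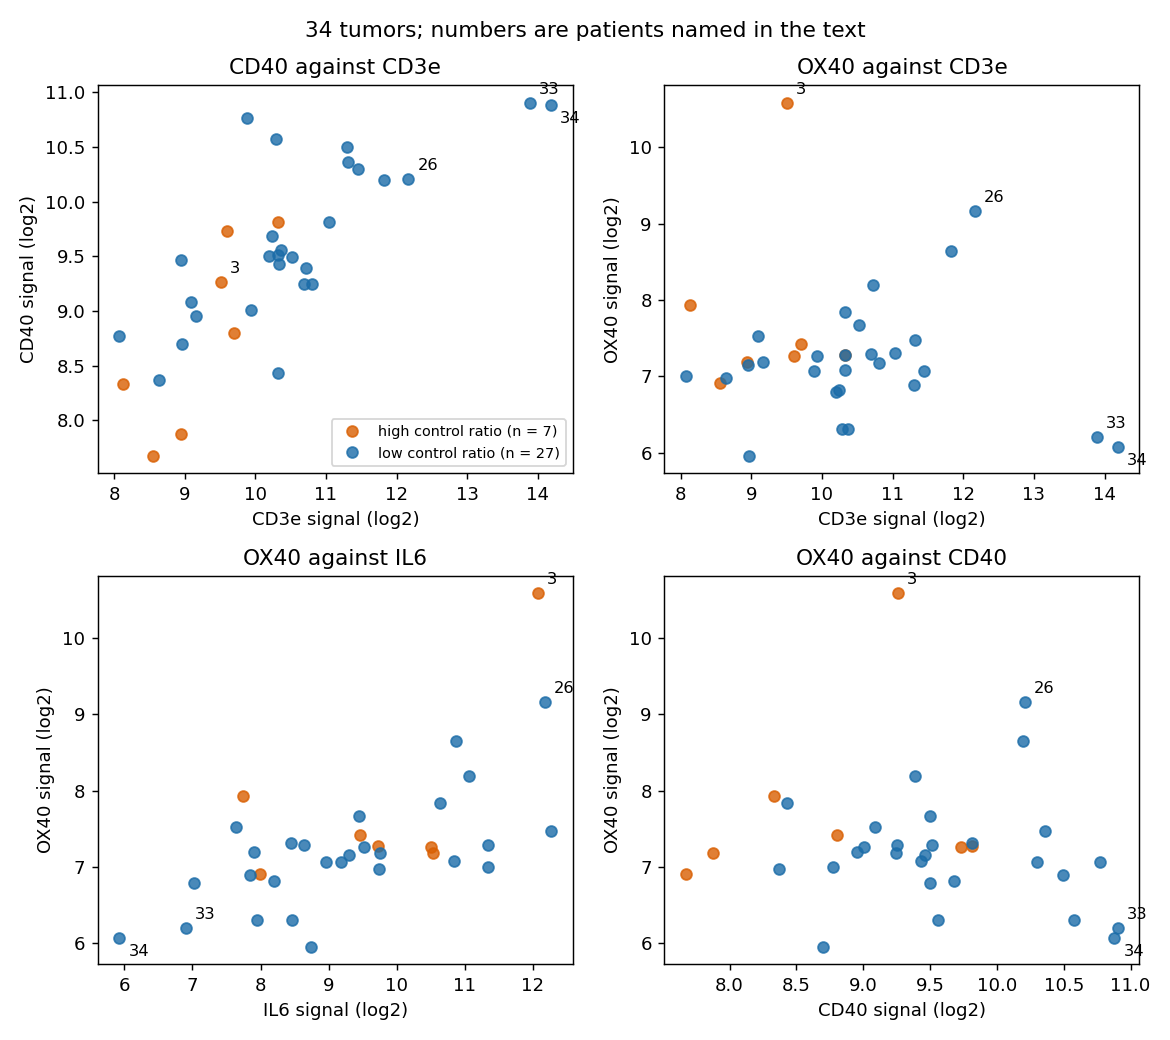
Log2 signals of CD40 against CD3e, OX40 against CD3e, OX40 against IL6 and OX40 against CD40 in the 34 tumors, colored by positive-control ratio group. CD40 rises with CD3e (r = 0.77) and OX40 with IL6 (r = 0.63), while OX40 shows no such relation to CD3e (r = -0.08) or CD40 (r = -0.11), and patients 33 and 34 are highest in CD3e and among the lowest in OX40.

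The relations of each receptor to the other 43 immune genes were tested together, with adjustment over all 85 relations (100000 permutations, two-sided, smallest p 1e-05). CD40 was correlated with 23 of the 43 genes, 22 of them positively, or 51.2%, and 1 negatively, or 2.33%. OX40 was correlated with 2, of which 1 was positive and 1 negative, or 2.33% each. The median r over the 43 genes was 0.43 for CD40, the 7th highest of the 44 immune genes, and -0.04 for OX40, the 39th, against a median of 0.20 over all 946 pairs of immune genes. All correlations of 1 receptor come from the same libraries and share their scaling.

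CD40 followed the T cell genes. All 5 genes of the T cell list were correlated with it: CD3e (r = 0.77, permutation p = 1e-05, adjusted p = 0.000121; rho = 0.74, permutation p = 1e-05), CD28 (r = 0.76), CD8a (r = 0.73), ICOS (r = 0.71) and CD27 (r = 0.67). CD8a marks cytotoxic T cells, while CD28 and ICOS are costimulatory receptors of T cells. The highest correlation of CD40 was with TBX, the T-bet transcription factor of type 1 helper and cytotoxic cells (r = 0.81, permutation p = 1e-05, adjusted p = 0.000121; rho = 0.82, permutation p = 1e-05). GATA3, the factor of type 2 helper cells, was also correlated with CD40 (r = 0.60), and BCL6, the factor of follicular helper and germinal center cells, was not (r = -0.31, adjusted p = 0.186). The CD40 relations to TBX and CD3e were 0.76 and 0.74 within the 27 low-ratio tumors, where both passed. Within the 7 high-ratio tumors they were 0.87 and 0.81 and did not pass after adjustment (exact permutation p = 0.00992 and p = 0.0351, adjusted p = 0.446 for both). For CD3e r was 0.72 without patients 33 and 34, the tumors farthest from its median.

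Regulatory, checkpoint and cytotoxic genes followed CD40 in part. Of the 4 regulatory genes, FOXP3 (r = 0.62), IL10, an inhibitory cytokine (r = 0.61), and CTLA4, an inhibitory receptor (r = 0.58), were correlated with CD40, and TGFb was not (r = -0.28, adjusted p = 0.232). Both checkpoint receptors were, PD-1 at r = 0.66 and LAG3 at r = 0.53. Among the 5 cytotoxic and NK cell genes, the granule proteins GZMA (r = 0.67), GZMB (r = 0.52) and PRF1 (r = 0.52) were correlated with CD40. IFNg (r = 0.27, adjusted p = 0.256) and NCR1, a receptor of NK cells (r = 0.16, adjusted p = 0.611), were not. NCR1 was above background in 24 of 36 samples, so its relations rest on low values.

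The genes of the antigen-presenting list, named for the cells in which CD40 is best known, were mostly not among its correlates. The panel held no general marker of macrophages or dendritic cells, so this does not show whether CD40 follows those cells. Of 8 genes, 1 passed: PDCD1LG2, which encodes PD-L2, a PD-1 ligand of dendritic cells and macrophages (r = 0.71, rho = 0.70, adjusted p = 0.00017). The other 7 were ICOSLG (r = 0.33), IL12 (r = 0.32), Pax5, the B lineage factor (r = 0.24), CD274 (r = 0.16), PD-L1 (r = 0.10), CLEC4C, a marker of plasmacytoid dendritic cells (r = 0.05), and CD70 (r = -0.01). CD274 and PD-L1 are names of the same protein, and the panel lists them separately. Pax5 was above background in 28 of 36 samples and is subject to the same limit. Among the TNF superfamily genes, CD27, TNF (r = 0.52, adjusted p = 0.00725) and TNFSF10 (r = 0.43, rho = 0.63, adjusted p = 0.0418) were correlated with CD40.

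Of the genes outside these lists, the chemokines CXCL2 and CCL2 (r = 0.53 for both) and GPR146, an orphan receptor (r = 0.43, adjusted p = 0.0418), were correlated with CD40. IL8, a chemokine that attracts neutrophils, was the negative correlate (r = -0.50, permutation p = 0.00247, adjusted p = 0.00954, and rho = -0.46, permutation p = 0.00714). It also did not pass within the low-ratio tumors (r = -0.31, adjusted p = 0.26), nor without the 2 tumors farthest in CD40 (r = -0.36, adjusted p = 0.135).

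None of the CD40 correlations passed once the level of T cell RNA was taken into account. In partial correlation given CD3e, 0 of 42 genes passed after adjustment and 7 had an unadjusted p below 0.05. The partial correlation was 0.42 for TBX (permutation p adjusted to 0.229), 0.38 for PDCD1LG2, 0.20 for CD28, 0.15 for CD8a and -0.28 for CD27. When the samples were rescaled to equal medians, 0 of 43 genes passed and 4 had an unadjusted p below 0.05, with r = 0.43 for TBX, 0.37 for PDCD1LG2 and 0.19 for CD3e. By median r with the other genes CD3e ranked 1st, TBX 2nd and CD40 7th. Subtracting the sample median therefore takes out variation that these genes share. How much of the fall in r comes from the subtraction was not tested.

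**Figure D4:**
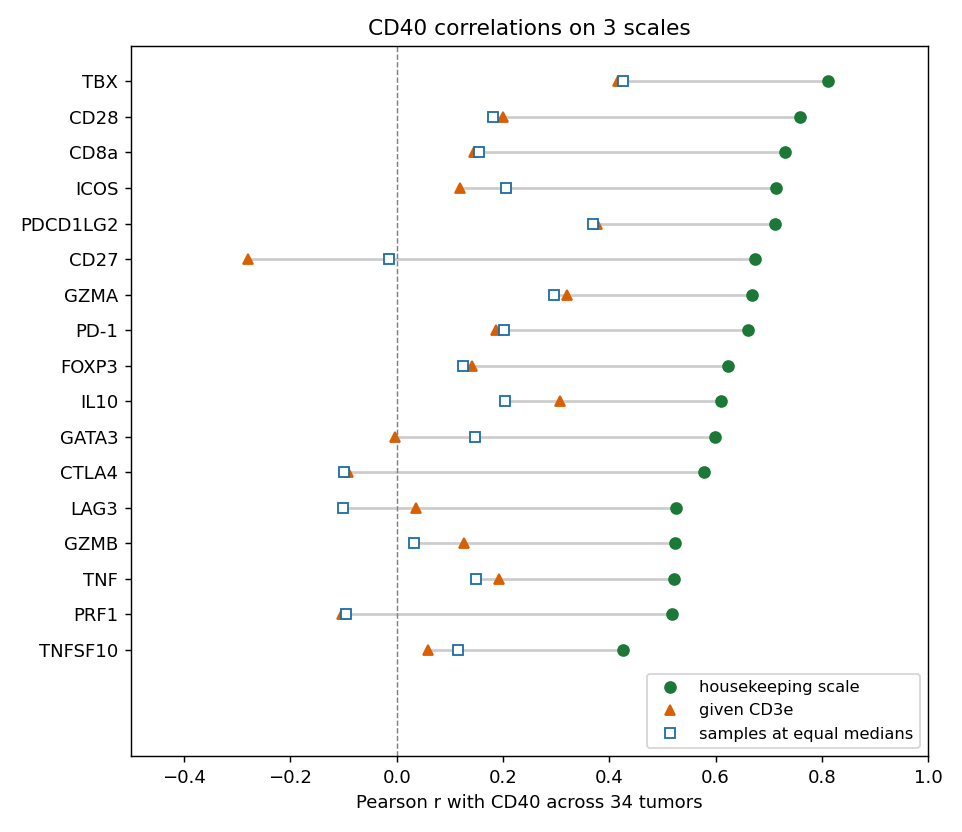
Pearson r of CD40 with genes of the lists that were correlated with it across 34 tumors, on the housekeeping scale (circles), given CD3e (triangles) and with samples at equal medians (squares). TBX goes from 0.81 to 0.42 given CD3e and 0.43 at equal medians, and CD27 goes from 0.67 to -0.28 and -0.01.

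OX40 did not follow the T cell genes. None of the 5 genes of the T cell list was correlated with it: r was -0.08 for CD3e (permutation p = 0.635; rho = 0.07), -0.18 for CD8a, -0.03 for CD27, 0.10 for CD28 and 0.05 for ICOS. The regulatory genes FOXP3 (r = 0.06, permutation p = 0.760), CTLA4 (r = 0.12), IL10 (r = -0.03) and TGFb (r = 0.29) did not pass either. The checkpoint, cytotoxic, antigen-presenting, TNF superfamily and helper lineage lists held no correlate of OX40, with r from -0.33 for GZMA to 0.13 for TNFSF10. The sign of the relation to CD3e rested on patients 33 and 34, which had the highest CD3e levels (13.89 and 14.19): without them r was 0.22 (adjusted p = 0.519), and with their mean as 1 sample it was 0.04. At equal sample medians the relation of OX40 to CD3e was -0.52 (adjusted p = 0.0293) and that to CD8a was -0.60. By median r with the other genes CD3e ranked 1st and OX40 39th, so subtracting the sample median lowers their correlation by itself. How much of these values comes from the subtraction was not tested.

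The positive correlate of OX40 was IL6, an inflammatory cytokine made by many cell types, among them macrophages, fibroblasts and epithelial cells. Its r was 0.63 (permutation p = 2e-05, adjusted p = 0.00017) and its rho 0.56 (permutation p = 0.00077, adjusted p = 0.00405). The tumors with the highest OX40 levels, patients 3, 26, 22 and 12 (10.59, 9.16, 8.65 and 8.19), had IL6 levels of 12.07, 12.17, 10.88 and 11.06 and ranked 3rd, 2nd, 7th and 6th in IL6. The next in OX40, patients 2, 36, 32 and 17, ranked 30th, 9th, 17th and 31st in IL6. Patient 26 had a total of only 48534 counts. Patients 33 and 34 had the lowest IL6 levels, 6.90 and 5.93, and were among the lowest in OX40. Within the 27 low-ratio tumors r was 0.67 (permutation p = 5e-05). Within the 7 high-ratio tumors it was 0.61 (exact permutation p = 0.167), a value that rests largely on patient 3. The next highest of them in OX40, patient 2, had an OX40 level of only 7.93 and an IL6 level of 7.74. Across both ratio groups r was 0.63 without the 2 tumors farthest in IL6 and 0.54 without patients 3 and 26, the highest in OX40 (adjusted p = 0.00695). It was also 0.63 given CD3e (adjusted p = 0.00166) and 0.70 at equal sample medians (adjusted p = 0.0017), where the rescaling itself shifts r.

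The mucosa samples lay at both ends of the IL6 range. The mucosa sample of patient 9 had an IL6 level of 14.07, above every tumor, and that of patient 8 one of 5.48, below every tumor, while their OX40 levels were 4.69 and 5.31. The tumor and mucosa means of IL6 differed by -0.42 (limma adjusted p = 0.798).

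The negative correlate of OX40, MX1, an interferon-induced antiviral protein, was less stable (r = -0.42, permutation p = 0.0134, adjusted p = 0.0455; rho = -0.24, permutation p = 0.173). It did not pass within the low-ratio tumors (r = -0.33, adjusted p = 0.235), without the 2 tumors farthest in MX1 (r = -0.30, adjusted p = 0.267) or in 12 of 14 alternative settings in all. Below IL6, the next highest correlations of OX40 were with SELP, the P-selectin of platelets and endothelium (r = 0.37, adjusted p = 0.103; rho = 0.42, adjusted p = 0.0452), IL2, a T cell growth factor (r = 0.31), TGFb and GPR146 (r = 0.29 for both).

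The difference between the correlations of both receptors was tested for each of the other 42 immune genes. It passed for 23 of them: 19, or 45.2%, had the higher correlation with CD40, and 4, or 9.52%, with OX40. At equal sample medians this split turned over: 12 genes passed, 5 with the higher correlation with CD40 and 7 with OX40, and 9 of the 12 were among the 23. That rescaling shifts the correlations by itself, so it is not an independent check of the split. The genes with the higher CD40 correlation included all 5 of the T cell list (median difference 0.71, against 0.44 over all 42), both checkpoint genes, 2 of 4 regulatory genes, 2 of 3 helper lineage genes, 2 of 5 cytotoxic and NK cell genes, 3 of 5 TNF superfamily genes and 1 of 8 antigen-presenting genes. The difference was 1.00 for GZMA (permutation p = 1e-05, adjusted p = 0.00042), 0.92 for TBX (adjusted p = 0.00238), 0.91 for CD8a (adjusted p = 0.00238) and 0.85 for CD3e (adjusted p = 0.0037). It was 0.57 for FOXP3 (adjusted p = 0.0482), which did not pass by rank correlation (adjusted p = 0.137) or with patients 33 and 34 as their mean (adjusted p = 0.148).

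The 4 genes with the higher OX40 correlation were IL6 (difference -0.79, adjusted p = 0.00527), SELP (-0.70, adjusted p = 0.0187), IL8 and TGFb. The number of genes with unequal correlations was 10 with patients 33 and 34 as their mean and 9 within the low-ratio tumors. IL6 and CD3e passed in both of these and at equal sample medians, at -0.67 and 0.71 with the mean of the pair, -0.95 and 0.72 in the low-ratio tumors, and -0.88 and 0.71 at equal medians. Without the 2 tumors farthest in the other gene the number was 11, with IL6 among them (-0.76, adjusted p = 0.0161), while the CD3e difference, computed without patients 33 and 34, was 0.50 and did not pass (adjusted p = 0.102). Given CD3e, 0 genes passed after adjustment and 6 had an unadjusted p below 0.05 (IL6 -0.70, adjusted p = 0.0618). Within the 7 high-ratio tumors 0 passed and 5 had an unadjusted p below 0.05 by the exact permutation test.

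**Figure D5:**
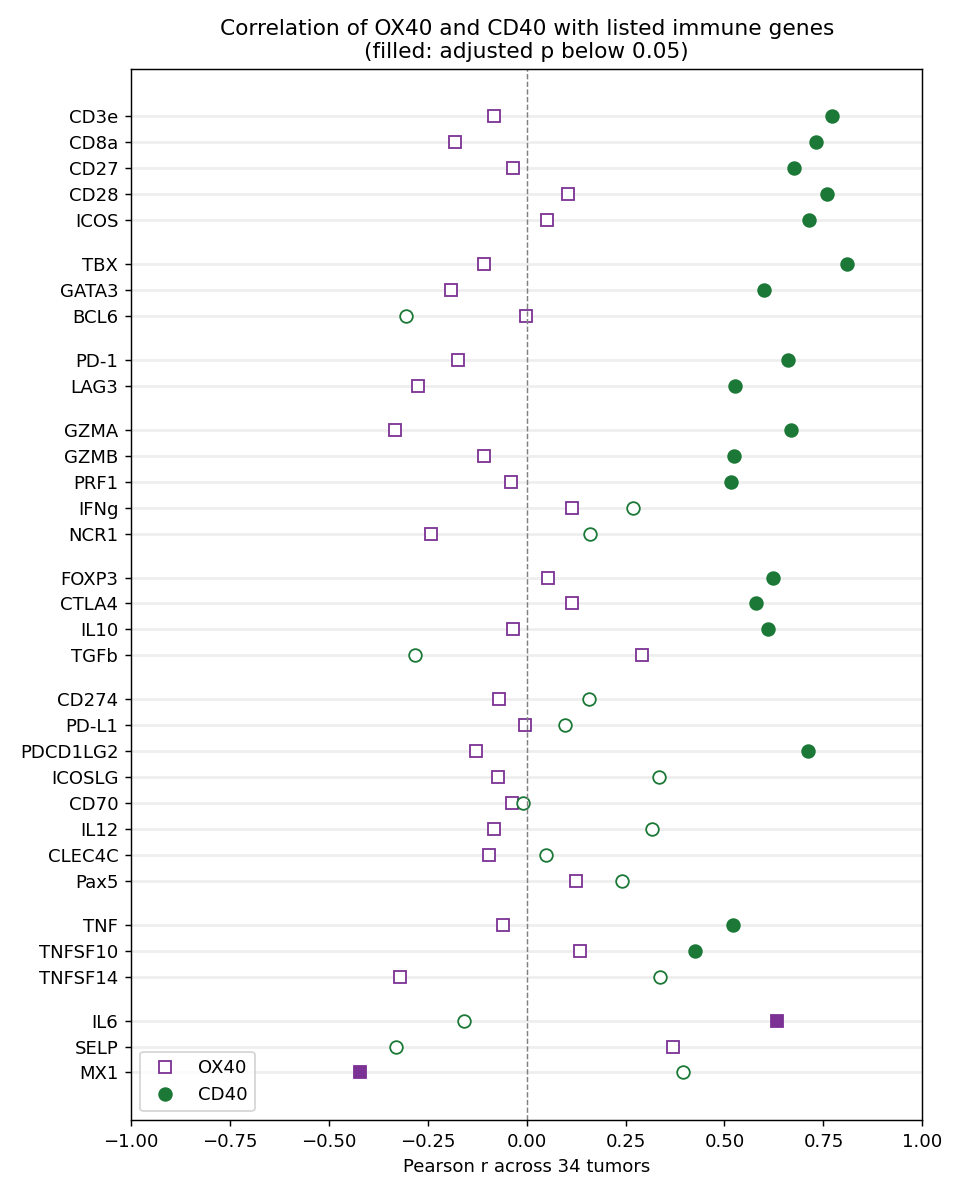
Pearson r across 34 tumors of OX40 (squares) and CD40 (circles) with the genes of each list and with IL6, SELP and MX1, which were added for their values, with filled symbols where the adjusted p was below 0.05. CD40 lies between 0.67 and 0.77 for the 5 T cell genes at the top, where OX40 lies between -0.18 and 0.10, and IL6 is the gene in which OX40 lies far to the right at 0.63.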

How the data were processed

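RNA from archived canine oral tumor and mucosa was hybridised to a custom nCounter panel by the submitters, per the labels, and counts were analysed in nSolver. The labels do not tell which samples were frozen and which fixed. The authors deposited signal values scaled to the housekeeping genes, with 6 positive and 6 negative controls. They are not whole counts, so no count model was used. Of 1728 gene values, 1726 were whole counts times a sample factor (tolerance 0.01), which gave depth, background (mean plus 2 SD of the negative controls) and Poisson intervals. Tumor and mucosa were compared with limma 3.58.1 (R 4.3.3) on log2 values without pseudocount or low-value filter, with Benjamini-Hochberg adjustment of the 44 immune-gene p-values at 0.05. Correlations, exact permutation tests and 100000-fold permutation tests were computed in Python 3.11.15 with numpy 2.4.6, scipy 1.17.1 and pandas 2.3.3, adjusted over 85 relations or 42 differences, and plots with matplotlib 3.10.9. A difference between correlations was tested as the correlation of a gene with the difference of the standardised OX40 and CD40 values. The scripts were tested on simulated data.

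The p-values measure spread between samples, some of which share a dog. Named genes were both receptors, the list genes, the 5 highest and 3 lowest correlates of each receptor and the genes with unequal correlations. Members and lists were chosen with earlier results of these data known. Results of some panel genes are counted but not reported here. Immunohistochemistry was not analysed here. Gene names came from RefSeq (UU_Cfam_GSD_1.0). Alternatives covered the test, scaling, pseudocount, low values, left-out samples, depth and the positive-control ratio.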

Additional observations from a re-analysis of the deposited data

How the results depend on the processing

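The direction of both receptors between tumor and mucosa was the same in every alternative run, but the calls were not. By the unequal-variance test the adjusted p was 0.131 for OX40 (2.30) and 0.165 for CD40 (1.84), and at equal sample medians the differences were 1.09 and 0.63. Leaving out a mucosa sample, which leaves a group of 1, gave 1.99 to 2.61 for OX40 and 1.50 to 2.19 for CD40. CD40 was 1.16 and did not pass in the high-ratio samples or with the ratio group as a term, settings that share this difference by construction. The number of immune genes called, 15 in all, was 9 in the high-ratio samples and 7 with the ratio group as a term. At equal medians it was 12, of which 5 were higher and 7 lower. Within samples, OX40 relative to CD40 ran from -0.20 to 1.12 without a mucosa sample, OX40 relative to CD3e from -0.82 to 0.69 and CD40 relative to CD3e from -1.93 to 0.89. In the high-ratio samples OX40 was 1.64 relative to CD40, 1.64 relative to FOXP3 and 1.46 relative to CD3e, and OX40 relative to CD3e was 0.085 with patients 33 and 34 as their mean.

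The correlation of OX40 with CD40 was 0.27 in the high-ratio tumors and 0.016 given the ratio group. The number of genes correlated with OX40 was 8 at equal medians, 0 in the high-ratio tumors (1 at an unadjusted exact permutation p below 0.05), and 1 without SDHA in the scaling, in the low-ratio tumors, with the closest pair as its mean, given total counts, CD3e or ratio group, without the 2 tumors farthest in the other gene and without the 3 tumors of fewest counts. The number correlated with CD40 was 0 at equal medians, in the high-ratio tumors and given CD3e, with 4, 7 and 7 genes at an unadjusted permutation p below 0.05. The number with unequal correlations was 12 at equal medians (5 higher for CD40, 7 for OX40), 9 and 0 in the low- and high-ratio tumors, 10 with the closest pair as its mean, 0 given CD3e and 11 without the 2 tumors farthest in the other gene. In 7 tumors no adjusted p passed for any correlation, and the smaller number of samples is part of that setting. The sign turned for CD40 with CD27 (-0.014 at equal medians, -0.28 given CD3e), CTLA4 (-0.098, -0.092), GPR146 (-0.24, -0.22), PRF1 (-0.095, -0.10), LAG3 (-0.10 at equal medians) and GATA3 (-0.0032 given CD3e). It turned for OX40 with CD3e (0.069 by rank, 0.027 in the low-ratio and 0.081 in the high-ratio tumors, 0.036 with the pair as its mean, 0.033 given ratio group, 0.22 without the 2 tumors farthest in CD3e) and with FOXP3 (-0.026 without the 2 tumors farthest in OX40, -0.073 without the 3 of fewest counts). Apart from the settings whose construction shows it, the cause was not tested. The settings without the 2 tumors farthest in a receptor and without the 3 tumors of fewest counts were chosen after seeing the data. The planned count model on the recovered counts was not run, and those counts served for depth, background and intervals only.

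No paired analysis was possible because the labels number the patients in 1 series and do not say which tumor came from the dog that also gave mucosa. The precision of OX40 is limited by its counts, which were 24 and 33 in the mucosa and 19 in the shallowest tumor.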

Other observations

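Some immune genes had a lower mean in tumors than in mucosa, unlike the receptors, and none of those given here passed the limma test. CLEC4C, a marker of plasmacytoid dendritic cells, had levels of 8.55 and 8.52 in the mucosa samples and a mean of 7.79 ± 0.53 (SD, n = 34) in tumors. The difference was -0.75 and did not pass the limma test, although 32 of 34 tumors lay below both mucosa samples. Its correlations with OX40 and CD40 across tumors were -0.10 and 0.05. SELP, the gene after IL6 in its correlation with OX40, had levels of 7.30 and 9.85 in the mucosa and 7.67 ± 0.95 (SD, n = 34) in tumors, a difference of -0.91 (limma adjusted p = 0.318). In SELP 24 of 34 tumors lay between the mucosa samples. TNFSF10, which encodes TRAIL, had levels of 12.04 and 12.35 in the mucosa and 11.98 ± 0.97 (SD, n = 34) in tumors, a difference of -0.21 (limma adjusted p = 0.798). In TNFSF10 12 tumors lay above both mucosa samples, 13 below both and 9 between them.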
